A study of Drosophila melanogaster with 2 samples.

Results

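The genes dnc, rut, amn, Pka-C1, Pka-R1 and Pka-R2 act in cyclic AMP signalling of the fruit fly Drosophila melanogaster, and several are known from mutants that fail to learn or remember. The set was chosen by symbol with earlier results of these arrays known, and it was selected on the log ratios of dnc probe 1308, which were negative on both arrays. A probe was taken when the platform annotation gave it exactly 1 gene symbol and that symbol, or its current synonym, was in the set. This found 8 probes of 4 of the 6 genes: 2 for dnc, 1 for rut, 1 for amn and 4 for Pka-R1. All 8 had a value on both arrays. No probe carried the symbol of Pka-C1, the main catalytic subunit of protein kinase A, or of Pka-R2, its type II regulatory subunit, so both are not analysed here. In the whole annotation, 13147 probes with 1 symbol covered 11865 genes.

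Cyclic AMP is made by adenylyl cyclases after hormones or neuropeptides bind receptors coupled to G proteins, and phosphodiesterases break it down. It releases the catalytic subunits of protein kinase A from their regulatory subunits, and the freed kinase phosphorylates channels, enzymes and transcription factors. In the fly, this pathway is studied most in the mushroom bodies, the brain centres of olfactory learning. dnc encodes the cyclic AMP phosphodiesterase Dunce, rut the calcium- and calmodulin-stimulated adenylyl cyclase Rutabaga, amn a neuropeptide precursor needed for stable memory, and Pka-R1 the type I regulatory subunit of protein kinase A.

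The study compared larvae that carried a GMR-driven fusion of green fluorescent protein with B52, an SR-family splicing factor, with control larvae in which GMR drove green fluorescent protein fused to a signal for nuclear import (GFP-NLS). Both crosses thus shared GMR, a promoter known for activity in the developing eye, and a fluorescent protein. The larval stage, the part of the animal taken and the number of animals are not stated in the labels. RNA of both kinds was hybridised together on 2 two-colour arrays in a dye swap, with the B52 RNA labelled Cy5 on replicate 1 and Cy3 on replicate 2. The question addressed was whether more B52 protein changes gene expression at large.

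The deposited values are log ratios with neither log base nor direction stated, so every value has 2 readings. The channel reading takes each value as the B52-labelled channel over the control channel. The dye reading takes each value as Cy5 over Cy3, which puts the control on top on replicate 2, so the sign is reversed for that array. Were the ratio deposited the other way up, the signs would turn in either reading. A probe with the same deposited sign on both arrays differs one way in the channel reading, and a probe with opposite signs does so in the dye reading, so no probe can do both. Over the 12500 probes measured on both arrays, 51.98% had the same sign and 47.94% opposite signs. Pearson's r between the arrays was 0.009 and Spearman's rho was 0.047 across these probes, which share their arrays and print positions and are not replicates. Over probes, the standard deviation of replicate 1 was 0.191 and that of replicate 2 was 0.2. The 5 probes of B52 itself had a mean of -0.0468 ± 0.126 (SD, n = 2 arrays) by the channel reading and -0.0892 ± 0.0662 by the dye reading, both below 0. Single B52 probes differed: probe 13309 had -0.217 on replicate 1 and 0.6 on replicate 2, so it was higher in the B52-labelled channel on replicate 2 alone by the channel reading and lower on both arrays by the dye reading. With the ratio the other way up, the dye reading would put the mean of the B52 probes above 0 on both arrays, so the values of B52 do not settle the direction. That channel is called by its label throughout.

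dnc had the largest values of the set, and its 2 probes did not behave alike. Probe 1308 stood at -0.504 on replicate 1 and at -0.47 on replicate 2 as deposited. It was thus negative by a similar amount on both arrays, which is the lower level in the B52-labelled channel if the channel reading is right and no shared direction if the dye reading is. Its mean was -0.487 ± 0.024 (SD, n = 2 arrays) by the channel reading, or 3.07-fold lower for log10 values and 1.40-fold lower for log2 values. By the dye reading the same probe had -0.504 and 0.47, with a mean of -0.017 ± 0.689. Probe 6556 had 0.022 on replicate 1 and -0.382 on replicate 2. It was near 0 on the array where probe 1308 was lowest, and negative with it on the other. Its mean was -0.18 ± 0.286 by channel and 0.202 ± 0.255 by dye.

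Averaged, the dnc probes gave -0.241 on replicate 1 and -0.426 on replicate 2. This amounted to -0.334 ± 0.131 (SD, n = 2 arrays) in the channel reading, or 2.16-fold lower for log10 values and 1.26-fold lower for log2 values. The dye-reading mean of dnc was 0.0925 ± 0.472, and the arrays were on opposite sides of 0. Probe 1308 was the value that brought dnc into this set, so it is given as a description and was not tested. By the smaller of its absolute values on the 2 arrays, it ranked 31 among the 6498 probes with the same deposited sign on both arrays. That rank comes from the values used for the selection, so nothing is read from it.

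**Figure D1:**
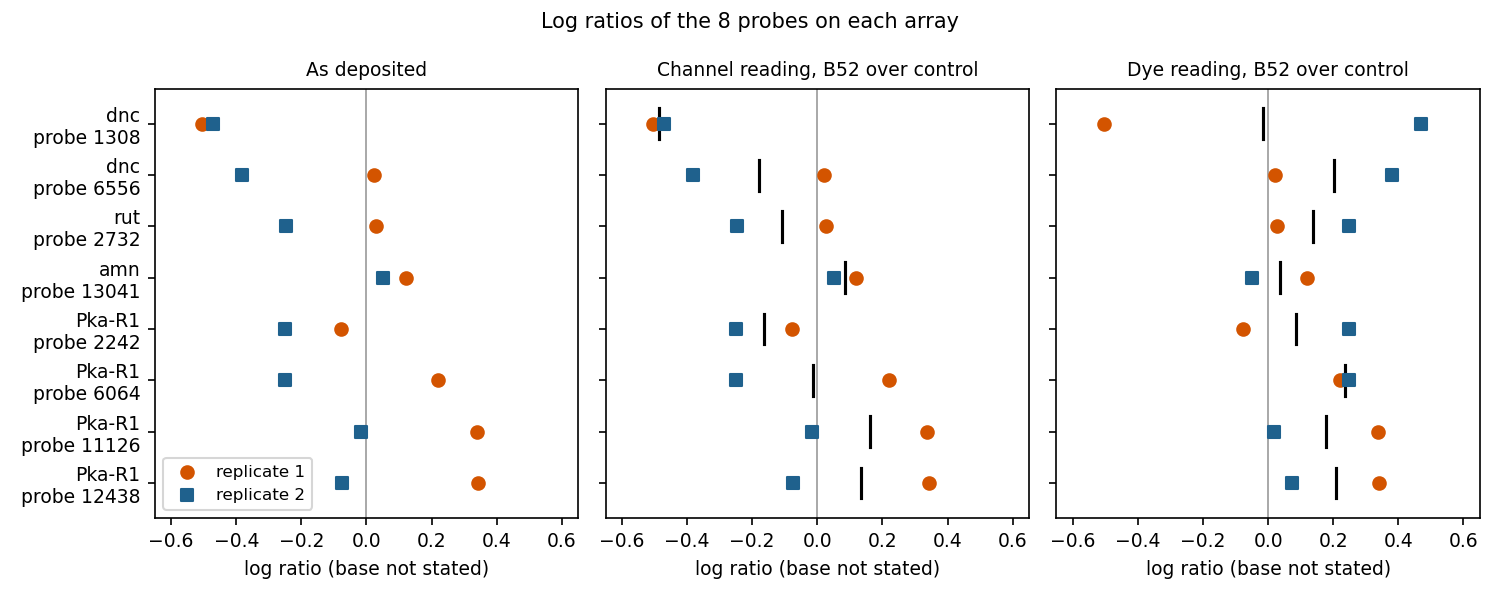
Log ratios (horizontal axis, base not stated) of the 8 probes of dnc, rut, amn and Pka-R1 (vertical axis) on replicate 1 (circles) and replicate 2 (squares), as deposited and in the channel and dye readings, with black bars at the mean of the 2 arrays. The arrays nearly coincide for dnc probe 1308 in the channel reading, at -0.504 and -0.47, and for Pka-R1 probe 6064 in the dye reading, at 0.221 and 0.249.

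Both dnc probes lay at position 652 of 656 in their sub-grids, the 24 blocks in which the layout repeats. Sub-grid 2, which held probe 1308, had the lowest median of all sub-grids on replicate 2, -0.139, and sub-grid 10, which held probe 6556, had a median of 0.124 there. With sub-grid medians subtracted, probe 1308 had -0.458 and -0.331 and probe 6556 had -0.001 and -0.506. Against the median of the 20 measured probes nearest by spot number, probe 1308 had -0.508 and -0.445 and probe 6556 had 0.05 and -0.55. The gap between the probes on replicate 1 and their shared sign on replicate 2 remained with either local offset removed. Sub-grid medians ran only from -0.073 to 0.08 on replicate 1 and from -0.139 to 0.158 on replicate 2. Offsets of that size could not have closed the gap or turned the signs. The gap also includes probe 1308, on which the set was selected, so nothing is read from this.

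rut, whose cyclase acts opposite to the Dunce phosphodiesterase, was measured by 1 probe. The probe had 0.028 on replicate 1 and -0.247 on replicate 2. Replicate 1 was thus near 0 and replicate 2 held nearly all of its value, as for dnc probe 6556. By the channel reading its mean was -0.11 ± 0.195 (SD, n = 2 arrays), with the arrays on opposite sides of 0, and 0.138 ± 0.155 in the dye reading, with both above 0. Either mean was smaller than the SD of the arrays.

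amn, the neuropeptide gene, was also measured by 1 probe, at 0.12 on replicate 1 and 0.05 on replicate 2. It was the only probe of the set above 0 on replicate 2. The channel reading gave a mean of 0.085 ± 0.0495 (SD, n = 2 arrays), 1.22-fold if log10 and 1.06-fold if log2, and the dye reading 0.035 ± 0.12. The probe lay in a sub-grid with a median of 0.106 on replicate 2, and with sub-grid medians subtracted its values were 0.081 and -0.056. The shared sign in the channel reading was then gone, and its mean there was 0.0125.

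Pka-R1, the regulatory subunit that holds the kinase inactive until cyclic AMP binds, was measured by 4 probes. Probe 6064 had 0.221 on replicate 1 and -0.249 on replicate 2. Probe 11126 had 0.338 and -0.017, and probe 12438 had 0.342 and -0.074. These 3 probes were positive on replicate 1 and negative on replicate 2, which in the dye reading is a higher level in the B52-labelled channel on both arrays. Probe 2242 had -0.078 on replicate 1 and -0.249 on replicate 2, so it shared the sign of the others on replicate 2 but not on replicate 1.

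By the dye reading, the probe means of Pka-R1 were 0.235 ± 0.0198 (SD, n = 2 arrays) for probe 6064, 0.178 ± 0.227 for probe 11126, 0.208 ± 0.19 for probe 12438 and 0.0855 ± 0.231 for probe 2242. Only for probe 6064 were the arrays close to each other, and the mean of probe 12438 was also larger than its SD. The channel-reading means were -0.014 ± 0.332, 0.161 ± 0.251, 0.134 ± 0.294 and -0.164 ± 0.121 in the same order of probes. There only the mean of probe 2242 was larger in size than its SD.

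The annotation gave these probes from different gene records. Probe 2242 carried Entrez record 40305, which is Pka-R1 in the RefSeq table. The other 3 carried record 40306, which is not in that table, and were matched by symbol alone. RefSeq lists 2 earlier locus tags under Pka-R1, and which part of the locus each probe covers was not tested. The 3 probes of record 40306 averaged 0.3 on replicate 1 and -0.113 on replicate 2, a dye-reading mean of 0.207 ± 0.132 (SD, n = 2 arrays) and a channel-reading mean of 0.0935 ± 0.293.

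Over all 4 probes, Pka-R1 had 0.206 on replicate 1 and -0.147 on replicate 2. The dye-reading mean was 0.177 ± 0.0414 (SD, n = 2 arrays), 1.5-fold higher for log10 values and 1.13-fold higher for log2 values. That small SD depends on averaging unlike probes. By the dye reading the 3 probes of record 40306 alone had 0.207 ± 0.132, and probe 2242 had 0.0855 ± 0.231. The channel-reading mean of all 4 probes was 0.0292 ± 0.25, and the arrays had opposite signs. The gene means of Pka-R1 and dnc thus each had a shared direction on both arrays, but in different readings, and only 1 of the readings can hold. Single probes did not all follow their gene: Pka-R1 probe 2242 had its shared sign in the channel reading, and dnc probe 6556 in the dye reading. The shared sign of probe 6556 rests on 0.022 on replicate 1. That value was -0.001 with the sub-grid median subtracted, which removes the shared sign, and 0.05 with the local median subtracted.

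**Figure D2:**
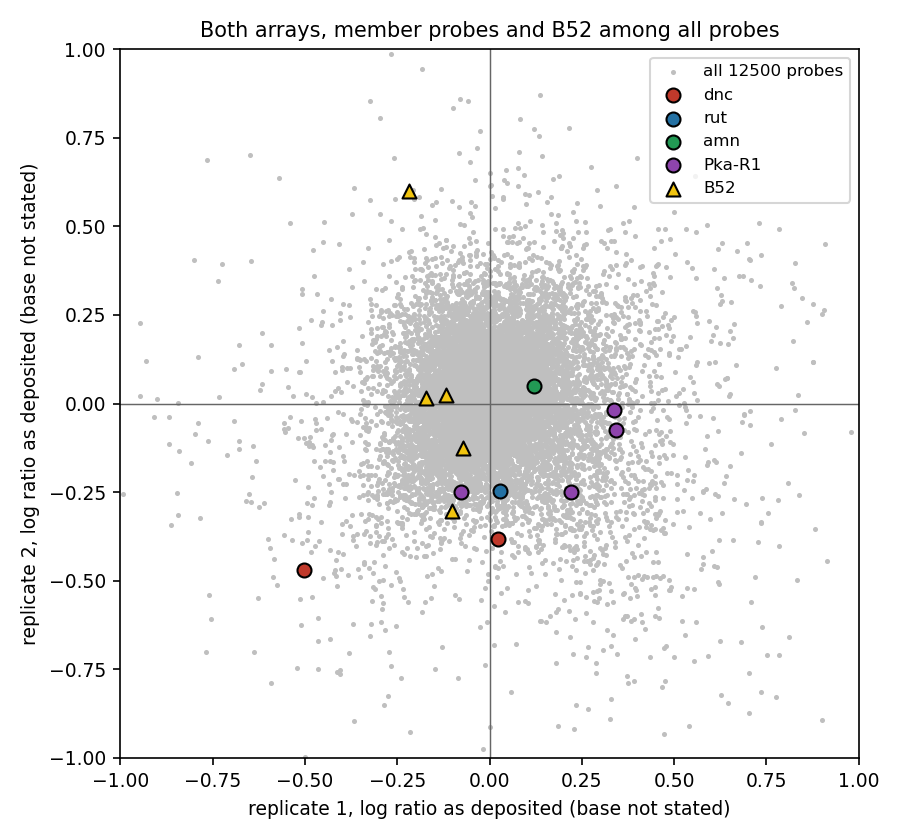
Deposited log ratio on replicate 1 (horizontal axis) against replicate 2 (vertical axis), base not stated, for all 12500 probes in grey, with the probes of dnc, rut, amn and Pka-R1 as coloured circles and the 5 probes of B52 as triangles. 45 probes lie beyond the axis limits of 1. Probes at lower left and upper right differ one way in the channel reading and probes at lower right and upper left in the dye reading; dnc probe 1308 lies at lower left and 3 Pka-R1 probes at lower right.

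By array, 6 of the 8 probes were positive and 2 negative on replicate 1, and 1 was positive and 7 were negative on replicate 2. Over all probes, 50.0% were above 0 on replicate 1 and 47.3% below 0 on replicate 2. By the dye reading, 5 of the 8 probes were higher on both arrays in the B52-labelled channel and 0 were lower on both, where 22.6% of all probes were higher on both and 25.3% lower. These 5 were dnc probe 6556, the rut probe and the 3 Pka-R1 probes of record 40306, so 3 of them share a gene. On replicate 1 dnc probe 6556 and the rut probe were near 0, at 0.022 and 0.028. By the channel reading, 1 probe was higher on both arrays and 2 were lower on both, where 27.4% of all probes were higher and 24.6% lower. The members were chosen with these arrays known, so nothing is read from these counts.

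A rule asked for a difference of at least 2-fold on each array with the same sign, a log ratio of 0.301 if the values are log10. In the channel reading 1 of the 8 probes reached it, beside 1.52% of all probes. This was dnc probe 1308, on which the set was selected. Of all probes, 0.784% were lower and 0.736% higher by this rule in that reading. Turned to the dye reading, 0 of the 8 probes reached it, beside 1.62% of all probes, of which 1.41% were higher and 0.216% lower. The limma test over all 12500 probes called 0 (0.0%) at an adjusted p of 0.05 in either reading, and the robust form of limma also called 0. At an unadjusted p under 0.05 there were 815 probes by the channel reading and 750 by the dye reading, or 807 and 732 with the robust form. Whether the arrays held separate RNA extracts is not stated in the labels, so the spread may be technical. In RNA of mixed tissue, fewer cells of a type and less RNA per cell cannot be told apart.

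Ordered by the dye reading, the gene means were 0.177 for Pka-R1, 0.138 for rut, 0.0925 for dnc and 0.035 for amn. Every neighbouring pair in that order differed by less than the larger SD of the pair, so the order does not stand above the spread of the arrays. By the channel reading the order was amn at 0.085, Pka-R1 at 0.0292, rut at -0.11 and dnc at -0.334. The neighbours from amn to rut did not differ by more than the larger SD of the pair, and the place of dnc rests on probe 1308, on which the set was selected; its other probe, at -0.18, was within 1 SD of rut.

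How far 2 probes of a gene can differ on these arrays was taken from all 1374 same-gene probe pairs of 685 genes. The median absolute difference within a pair was 0.144 on replicate 1 and 0.168 on replicate 2, and 37.3% and 41.6% of pairs had different signs. The dnc probes differed by 0.526 on replicate 1, and 6.19% of all pairs differed by as much or more. That gap rests on probe 1308, on which the set was selected, so nothing is read from this share. On replicate 2 they differed by 0.088, less than the median pair. Among the Pka-R1 probes, 11126 and 12438 differed by 0.004 and 0.057, and lay at the same position of sub-grids 17 and 19. Probe 2242 differed from the other Pka-R1 probes by 0.299 to 0.42 on replicate 1. Of all pairs, 21.9% differed by at least 0.299 there and 11.8% by at least 0.42. On replicate 2 it differed from them by 0.0 to 0.232, and 36.3% of all pairs differed by at least 0.232.

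**Figure D3:**
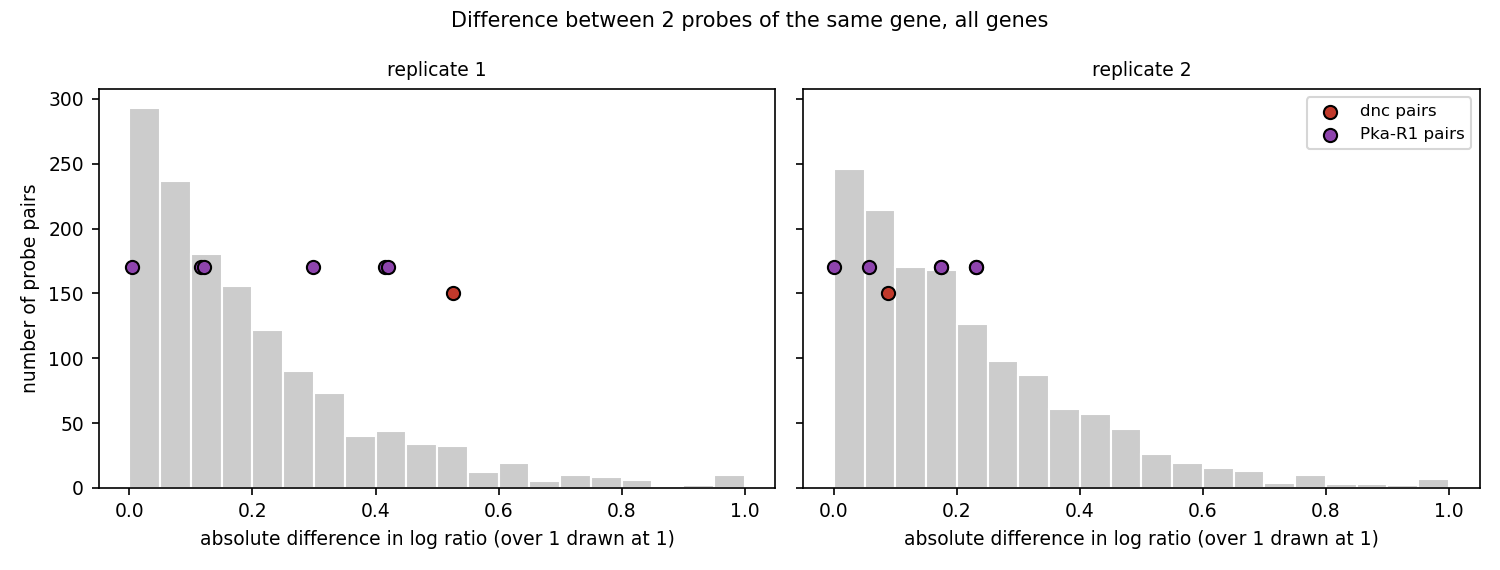
Absolute difference in log ratio between 2 probes of the same gene (horizontal axis, base not stated, values over 1 drawn at 1) against the number of pairs (vertical axis) on each array, for 1374 pairs of all genes in grey. The coloured points mark the dnc pair and the 6 Pka-R1 pairs by their horizontal position alone. The dnc pair lies at 0.526 on replicate 1 and 0.088 on replicate 2, and it includes probe 1308, on which the set was selected.

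Other genes of cyclic AMP signalling and of memory were taken in 7 lists with 81 names, of which 63 genes had a probe on both arrays. No probe of these lists passed the limma test over all probes in either reading, where 7 of their 84 probes (8.33%) had an unadjusted p under 0.05 by the channel reading and 13 (15.5%) by the dye reading. Over all probes with 1 symbol these shares were 6.03% and 5.76%. Together they had a median of 0.052 in the channel reading, where the median of all 10299 genes was 0.008, and of 0.017 in the dye reading, against -0.008 for all genes. By channel, 17 of the 63 were higher on both arrays and 8 lower (27.0% and 12.7%), and over all genes 27.9% and 24.2% were. By dye, 23 were higher and 15 lower (36.5% and 23.8%), and over all genes 21.8% and 25.9% were. No test of these differences was made.

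Among ligands and receptors, 15 of 20 genes were measured, with a median of 0.109 by the channel reading and -0.0625 by the dye reading. Pdfr, the receptor of the clock neuropeptide PDF, had 0.194 on replicate 1 and 0.198 on replicate 2. Octbeta2R, an octopamine receptor, had deposited values of 0.176 and 0.221. Their shared sign on the 2 arrays follows from the rule by which genes of the lists were named. Dop2R, a dopamine receptor, had 0.165 and 0.086 in the dye reading, and DopEcR, a receptor for dopamine and ecdysone, had -0.093 and -0.096.

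All 5 measured G protein subunits had opposite deposited signs on the 2 arrays, so 0 had a shared direction in the channel reading. By the dye reading 2 were higher and 3 lower on both arrays, beside 21.8% and 25.9% of all genes. Gbeta76C, the beta subunit of the photoreceptor G protein, had 0.598 and 0.327 in the dye reading. Galphao, a subunit abundant in neurons, had 0.455 and 0.316. Galphas, the subunit that activates adenylyl cyclases, had -0.003 on replicate 1 and -0.148 on replicate 2 in that reading.

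The adenylyl cyclases other than rut numbered 8 measured genes, with medians of 0.063 by the channel reading and -0.004 by the dye reading. ACXD and ACXE, cyclases of the ACX family, had 0.151 and 0.165, and -0.121 and -0.198, in the channel reading. Ac78C had dye-reading values of -0.405 and -0.235, and Ac13E had -0.082 and -0.555. Those 2 cyclases were therefore lower on both arrays in the reading in which rut, at 0.028 and 0.247, was above 0. In the same reading 1 of the 8 cyclases was above 0 on both arrays, as rut was. Over all genes, 21.8% were higher and 25.9% lower on both arrays there.

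Phosphodiesterases other than dnc numbered 4 measured genes. The mean of dnc was negative on both arrays in the channel reading. On replicate 1 that sign rests on probe 1308, at -0.504, on which the set was selected. The other dnc probe, 6556, had 0.022 there, so these genes are not set against dnc. In the channel reading, 2 of the 4 had values above 0 on both arrays. Of the 4, 0 had values below 0 on both and 2 had mixed signs, with a median of 0.0629. Over all genes, 27.9% were above 0 on both arrays and 24.2% below 0 on both in that reading. Pde1c, a calcium-stimulated enzyme, had means over its 4 probes of 0.215 and 0.181, and Pde8 had 0.114 and 0.031. Pde11 had 0.171 and 0.164 in the dye reading, as means over its 2 probes. Pde9 had -0.0065 and -0.113 in the same reading, also over 2 probes.

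Of the other kinase subunits and anchoring proteins, 6 of 6 genes were measured. Pka-C2, a further catalytic subunit, had -0.032 and -0.039 in the channel reading, and rg, the anchoring protein Rugose, had 0.0115 and 0.0145. Both lay close to 0 on each array. The anchoring protein gene spoon had the largest values of this list, 0.577 and 0.25 in the dye reading. Epac, a guanine nucleotide exchange factor that binds cyclic AMP, had 0.073 and 0.022.

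Of CREB and its cofactors, 2 genes were measured. Crtc, a coactivator of CREB, had 0.238 on both arrays in the channel reading, and nej, the CREB-binding acetyltransferase, had 0.0115 and 0.0375 in the dye reading. The list of other learning and memory genes had 23 measured genes. In the dye reading 13 (56.5%) were higher and 4 (17.4%) lower on both arrays, beside 21.8% and 25.9% of all genes. In the channel reading 4 (17.4%) were higher and 2 (8.7%) lower, beside 27.9% and 24.2% of all genes. These differences were not tested. The highest gene of this list in the dye reading was ple, tyrosine hydroxylase of dopamine synthesis, with 0.752 and 0.711. Ddc, the next enzyme of that route, had 0.268 and 0.304. In the channel reading nAChRalpha1, an acetylcholine receptor subunit, had 0.217 and 0.36, and orb2, an RNA-binding protein of long-term memory, had 0.286 and 0.14. The medians of this list were 0.0733 by the dye reading and 0.017 by the channel reading.

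**Figure D4:**
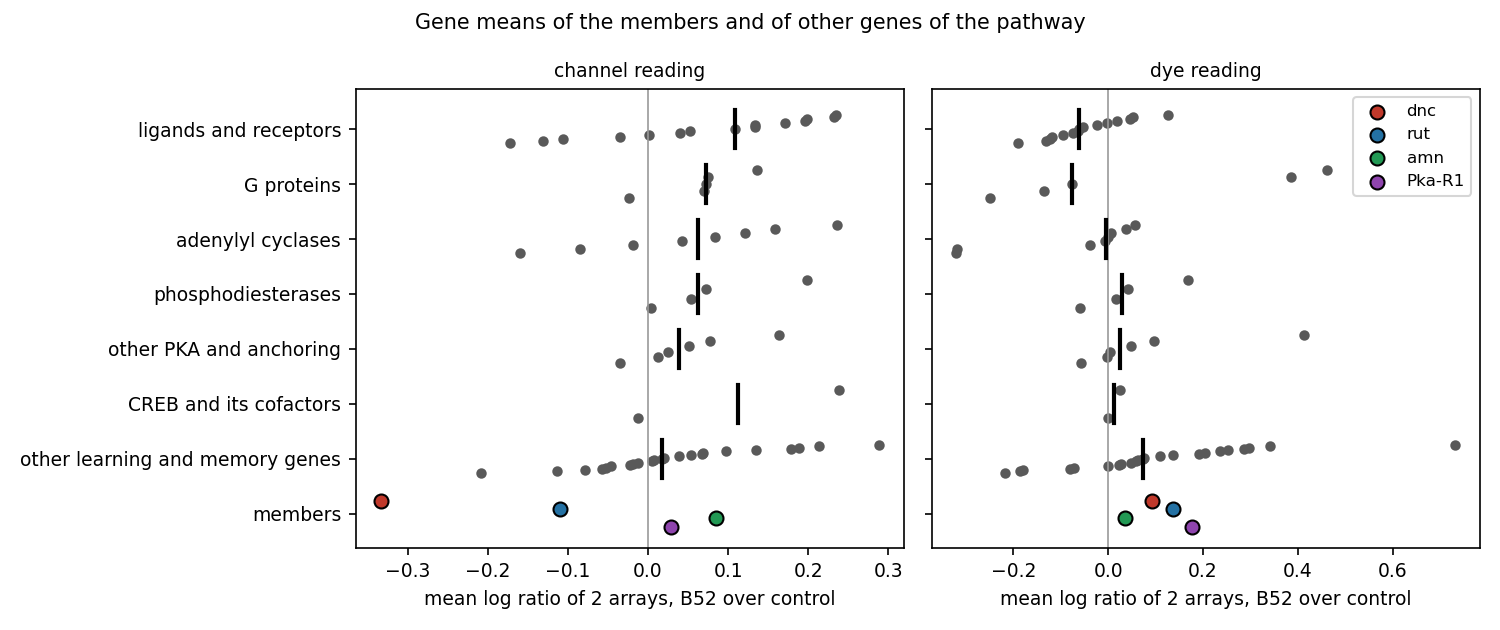
Mean log ratio of the 2 arrays (horizontal axis, base not stated), B52-labelled channel over control, for the genes of 7 lists of cyclic AMP signalling and memory (grey points, black bars at the list medians) and for dnc, rut, amn and Pka-R1 (coloured points), in the channel reading at left and the dye reading at right; the horizontal scales differ. dnc lies at -0.334 in the channel reading and at 0.0925 in the dye reading.

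Because the arrays give ratios and no levels, the presence of neurons or of eye tissue in the RNA could not be checked. Neuronal markers had a median of 0.063 by the channel reading and 0.0152 by the dye reading over 14 measured genes. Of these, in the dye reading 4 were higher and 3 lower on both arrays, and in the channel reading 5 and 2. Over all genes, 21.8% were higher and 25.9% lower on both arrays in the dye reading, and 27.9% and 24.2% in the channel reading. Mushroom body markers had medians of 0.0631 and -0.0127 over 6 genes, and glial markers -0.014 and 0.0145 over 7. On both arrays, 1 mushroom body marker was higher and 3 were lower by dye, and 1 and 1 by channel. For glial markers these counts were 2 and 3 by dye, and 0 and 2 by channel. Of 12 muscle markers, 7 were measured. In the dye reading, in which Pka-R1 was positive on both arrays, 6 of the 7 (85.7%) were higher on both and 1 was lower. Their array medians there were 0.138 and 0.489, and 0 had a shared direction in the channel reading. Their part in the Pka-R1 values was not tested. Fat body markers had medians of 0.065 and 0.0485 over 4 genes, and markers of the eye disc and photoreceptors 0.0018 and -0.079 over 8. Of the fat body markers, 1 was higher and 1 lower on both arrays by dye, and 2 and 0 by channel. Of the eye markers, 0 were higher and 5 (62.5%) lower on both arrays by dye, and 2 and 1 by channel. None of these marker counts was tested.

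The genes closest to each member were found by the distance between gene means on the 2 arrays, over 10299 genes and 2 arrays. The nearest to dnc were Ts, at -0.233 and -0.424, and CheB93b, at -0.215 and -0.429, and 3 genes lay within 0.05 of it. The nearest to Pka-R1 were Synj, at 0.206 and -0.143, and nol, at 0.202 and -0.15, with 84 genes within 0.05. For rut they were UK114 and CG31323 among 94 genes within that distance, and for amn CG5225 and Dnaaf3 among 348. With 2 arrays many genes can share a pair of values, and the number near dnc follows from its selection for large values.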

How the data were processed

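The values the authors deposited were taken as log ratios, from their signs, their medians near 0 and the 2-colour labels, and neither log base nor direction is stated. The unit of the deposited values is recorded as a score because 5 spots of replicate 1 hold the code -10000, outside the range of a log ratio and treated as missing. How images were analysed and values normalised is not given in the labels, and dim spots could not be judged without intensities. Per the labels, channel 1 held control RNA and channel 2 B52 RNA on both arrays, and the molecule of the control channel of replicate 1 is labelled differently from the other 3 channels. Deposited medians over all spots were -0.006 and 0.01.

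Each array had 15744 spots, and 13919 and 14026 had a value. The 960 spots at positions without annotation in all 24 sub-grids were taken as controls and left out. Symbols came from the platform annotation and were updated through Entrez identifiers, symbols or synonyms of the RefSeq table of release 6 names: 13107 of 13147 probes matched and 40 kept the old symbol. The annotation can be old, and no positions are used.

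For 12500 probes, limma 3.58.1 under R 4.3.3 (lmFit, eBayes) compared the mean of the arrays with 0 on 1 residual degree of freedom, with Benjamini-Hochberg adjustment over all probes. Probes of a gene were averaged on each array, and ± is the SD of the 2 arrays. The number of arrays limits the precision. Named genes were all members, B52, up to 2 genes per list and reading by the larger of the smaller absolute array values among genes of 1 sign, and the 2 nearest genes of each member. Galphas was added after its values were seen. Members and lists were chosen with earlier results of these data known. Tables and plots used Python 3.11.15, numpy 2.4.6, pandas 2.3.3 and matplotlib 3.10.9.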

Additional observations from a re-analysis of the deposited data

How the results depend on the processing

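The gene means of dnc, rut, amn and Pka-R1 in both readings were recomputed with arrays centred on their medians, with both arrays at the same spread, with sub-grid medians removed, with the median over probes and with all probes on either array, and, chosen after seeing the data, with local medians of 20 probes removed or with the 3 Pka-R1 probes of record 40306 alone. Of these 50 values, 47 moved by less than 1 SD of the arrays and 1 changed sign, Pka-R1 in the channel reading, from 0.0292 to -0.0003 with local medians removed. Some of the 47 could not move. All 8 probes had values on both arrays, so taking all probes on either array changed no mean. The median over probes equals the mean for dnc, with 2 probes, and for rut and amn, with 1 each. The count of 47 is therefore no measure of stability. In the channel reading the amn mean was 0.0125 with sub-grid medians removed and 0.014 with local medians removed, and the dye-reading mean of Pka-R1 was 0.221 with the median over probes. On single arrays the channel-reading means ran from -0.426 to -0.241 for dnc, -0.247 to 0.028 for rut, 0.05 to 0.12 for amn and -0.147 to 0.206 for Pka-R1. The dye-reading means ran from -0.241 to 0.426 for dnc, 0.028 to 0.247 for rut, -0.05 to 0.12 for amn and 0.147 to 0.206 for Pka-R1. Limma called 0 probes in both readings under every alternative tried, with 630 to 1018 probes at an unadjusted p under 0.05. It was not run on single arrays, which leave no residual degree of freedom. The 2-fold rule counted 190 probes by channel and 203 by dye, 0 in either at a log ratio of 1, and 1123 to 1292 on single arrays. Its split was 92 higher and 98 lower in the channel reading, 85 and 52 over probes with 1 symbol, 55 and 80 with sub-grid medians removed, 758 and 365 on replicate 1 alone and 607 and 685 on replicate 2 alone. Each ratio already sets B52 against control RNA within its array, so the test of the mean ratio against 0 is itself the paired comparison. No further pairing or block can be added.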

Other observations

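Of the 1374 same-gene probe pairs, 232 lay 1312 spots apart, at the same position of sub-grids that are 2 apart in the layout, as the Pka-R1 probes 11126 and 12438 did. The median difference within these pairs was 0.122 on replicate 1 and 0.139 on replicate 2, and for the other 1142 pairs it was 0.147 and 0.173. Signs differed within 37.1% and 36.2% of the pairs at that spacing on the 2 arrays, and within 37.3% and 42.7% of the others. Whether such pairs are the same clone printed again was not tested.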
